A study of Mus musculus with 2 samples.

Results

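The genes described here are the platelet-derived growth factor (PDGF) ligands Pdgfa, Pdgfb and Pdgfc and the receptors Pdgfra and Pdgfrb. These 5 genes of the 32285 in the deposited matrix were chosen by name as members of 1 signalling system, and their UMIs (unique molecular identifiers, each a counted RNA molecule) were summed per library and per cell class. The series asks what Kindlin-2, the integrin-binding adaptor encoded by Fermt2, does in immune evasion by breast cancer. It holds 2 single-cell libraries, 1 from tumours of 4T1 cells with the Kindlin-2 gene knocked out by a guide RNA (K2-KO) and 1 from tumours of 4T1 cells that carried a control guide RNA and are labelled wild type (control). The mouse mammary carcinoma line 4T1 is a model of triple-negative breast cancer, and in both groups it was injected into the mammary fat pad of female BALB/c mice, for which the labels name no modification, so the guides belong to the injected cells and not to the host's stroma. Tumours were excised at 150 mm3, digested for 45 min and sorted as live cells by mCherry, the pooling of the fractions and the number of tumours, the age of the mice and the number of knockout clones not being given in the labels.

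PDGFs are secreted dimers that bring a pair of receptor tyrosine kinases together at the cell surface. PDGF-A and PDGF-C act mainly through the alpha receptor, whereas PDGF-B binds both receptors and, released by endothelial cells, recruits pericytes that carry the beta receptor to growing vessels. In carcinomas the ligands are known as signals to fibroblasts and pericytes of the stroma, and PDGF-C is secreted as a latent form that has to be cleaved by proteases before it binds.

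Pdgfc (ENSMUSG00000028019) lies on the plus strand at chr3:81036416-81214040, Pdgfra (ENSMUSG00000029231) on the plus strand at chr5:75152292-75198215, Pdgfa (ENSMUSG00000025856) on the minus strand at chr5:138976014-138997370 and Pdgfb (ENSMUSG00000000489) on the minus strand at chr15:79995874-80014977, in the GENCODE annotation of mm10. Pdgfrb is listed in the matrix as ENSMUSG00000024620. Of the 5 genes, 3 were matched in the RefSeq promoter table of GRCm38.p6, the mm10 assembly, which is the C57BL/6J and not the BALB/c sequence. These windows are shown because the ligand genes Pdgfc and Pdgfa, read in the same tumour cells, differed between the libraries to unequal degrees. The receptor gene Pdgfra was also read in those cells. Each runs 5′ to 3′ on the gene's strand, from 250 bases before to 50 bases after the annotated start, with the letters of any searched motif in capitals.
Pdgfc, chr3:81036166-81036465, plus strand: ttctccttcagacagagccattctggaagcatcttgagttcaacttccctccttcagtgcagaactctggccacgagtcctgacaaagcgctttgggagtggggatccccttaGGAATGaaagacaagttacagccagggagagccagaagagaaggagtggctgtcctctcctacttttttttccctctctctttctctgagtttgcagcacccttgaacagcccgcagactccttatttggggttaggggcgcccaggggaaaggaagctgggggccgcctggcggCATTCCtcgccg
Pdgfa, upstream start, chr5:138994895-138995194, minus strand: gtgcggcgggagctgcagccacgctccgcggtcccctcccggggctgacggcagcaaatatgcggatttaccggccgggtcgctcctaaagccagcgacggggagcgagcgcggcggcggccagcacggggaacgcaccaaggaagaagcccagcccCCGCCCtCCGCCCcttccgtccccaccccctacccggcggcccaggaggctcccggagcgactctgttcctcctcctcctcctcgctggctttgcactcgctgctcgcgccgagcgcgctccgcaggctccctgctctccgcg
Pdgfa, downstream start, chr5:138994232-138994531, minus strand: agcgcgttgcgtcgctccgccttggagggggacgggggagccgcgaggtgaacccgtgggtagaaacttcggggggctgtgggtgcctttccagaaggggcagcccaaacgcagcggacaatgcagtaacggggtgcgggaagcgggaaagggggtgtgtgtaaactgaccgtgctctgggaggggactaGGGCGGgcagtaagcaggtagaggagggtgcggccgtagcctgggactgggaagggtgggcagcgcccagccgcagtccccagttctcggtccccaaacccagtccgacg
Pdgfra, chr5:75152001-75152300, plus strand: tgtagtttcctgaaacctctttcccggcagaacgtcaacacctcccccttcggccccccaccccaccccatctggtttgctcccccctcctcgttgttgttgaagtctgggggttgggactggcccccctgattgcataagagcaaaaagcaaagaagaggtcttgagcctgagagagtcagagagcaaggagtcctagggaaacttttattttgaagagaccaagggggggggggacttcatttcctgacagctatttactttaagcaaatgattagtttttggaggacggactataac
Both strands were searched for the letters GGGCGG known as the GC box, for TGANTCA bound by AP-1 factors, for GGAATG bound by TEAD factors, for TATAAA of the TATA box, and for GCGTGGGCG bound by EGR factors. The Pdgfc window held 2 GGAATG matches, of which the second reads as CATTCC on the strand shown, and no other match. The Pdgfa windows held 2 GGGCGG matches at the upstream start, written CCGCCC on this strand, and 1 at the downstream start. No searched motif was in the Pdgfra window. Over all 32851 windows of 300 bases in the table, 14.7% held the TEAD letters, 35.7% the GC box, 7.81% the AP-1 letters, 13.6% the TATA box and 0.612% the EGR letters, so that the matches are common ones. The base composition differed, with 55% G or C in the Pdgfc window, 73.3% and 67% in the Pdgfa windows and 51% in the Pdgfra window.

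There were 7250 barcodes in the K2-KO library, at a median depth of 15287 UMIs, and 8038 in the control library, at 21758.5 UMIs. The libraries shared 13 barcode sequences. After filtering and removal of called doublets, 6761 K2-KO and 7530 control cells were used. Classes were gated by 1 gene each, and a class level is given as CPM, the gene's UMIs scaled by all UMIs of the class in that library to a common total, with an exact Poisson 95% interval. The Epcam gate for tumour cells held 1970 K2-KO and 2858 control cells, the Col1a1 gate for fibroblasts 85 and 83, the Rgs5 gate for pericytes 6 and 16, the Pecam1 gate for endothelial cells 25 and 49, and the C1qa gate for macrophages 1026 and 1339. The labels give the cell type as triple-negative breast cancer cells, whereas many barcodes passed gates of host cells. All 7 fibroblast, endothelial and pericyte markers had UMIs in their own gates in both libraries, and the pericyte gate also held fibroblast markers at 4889 CPM in K2-KO and 3839.9 CPM in control cells, summed over the list. Cells of no gate, 958 in the K2-KO and 1404 in the control library, are called unassigned. In the tumour gate Fermt2 stood at 17.4 CPM in K2-KO and 38.4 CPM in control cells, so the transcript was lower in the library labelled as the knockout but was still read there. The 3′ tags do not show the state of the guide's target site. A lower Fermt2 level was not confined to the injected cells. Fibroblasts had 306 CPM in K2-KO and 474 CPM in control cells, a log2 ratio of -0.63 (-0.75 to -0.51). The log2 ratio was -0.41 (-0.78 to -0.05) in pericytes and 0.07 (-0.28 to 0.40) in endothelial cells. In immune gates it rested on few UMIs. It was -1.76 (-3.07 to -0.64) in macrophages, from 8 K2-KO and 38 control UMIs, and -2.28 (-3.48 to -1.20) in T cells, from 10 and 29 UMIs. Cells with Ptprc that passed no other gate gave -3.81 (-5.35 to -2.54), from 6 K2-KO and 35 control UMIs. The cause of these differences was not tested. With 1 library per group there is no test, and every interval covers counting error only. Levels are compared within a gene, because 3′ tag counts of different genes depend on how well each transcript end is captured.

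**Figure D1:**
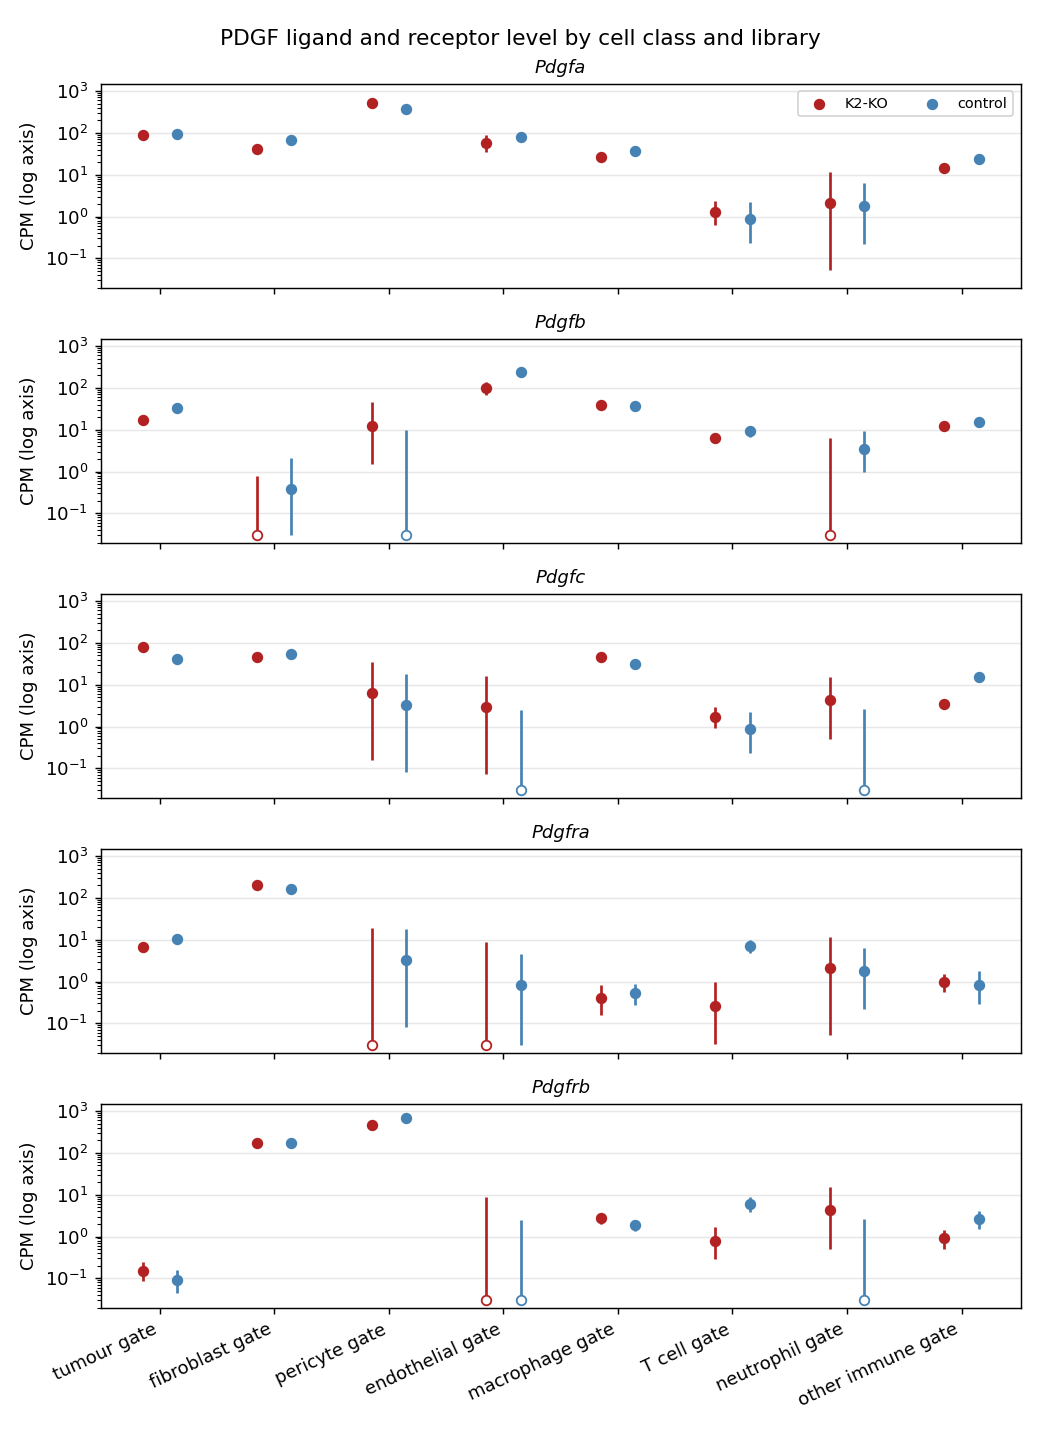
Level of each gene by cell class, in CPM on a log axis, with K2-KO in red left of control in blue. Points are class sums, bars are exact Poisson 95% intervals, and open points at the foot of an axis mark 0 UMIs with the limit that 3 counts would give. Ligands are read in tumour cells, macrophages and stromal classes, Pdgfra most in fibroblasts, and Pdgfrb in pericytes and fibroblasts.

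Pdgfc was the ligand whose tumour cell RNA was higher in the K2-KO library. It had 7676 UMIs in 1970 K2-KO cells of the tumour gate and 4926 UMIs in 2858 control cells, that is, 78.6 CPM (76.9 to 80.4) in K2-KO and 40.2 CPM (39.1 to 41.4) in control cells. The log2 ratio was 0.97 (0.92 to 1.02), or 1.95-fold higher. Among the 5 genes, Pdgfc and Pdgfrb were at least 1.5-fold higher in this gate, where 19.5% of all 17397 genes with at least 20 UMIs were, and Pdgfb was at least 1.5-fold lower, where 6.13% were. The median log2 ratio of all genes was 0.12. The Pdgfrb entry rests on 15 K2-KO and 11 control UMIs, with an interval of -0.45 to 2.04 for its log2 ratio.

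The share of tumour cells with a Pdgfc UMI was also higher in the K2-KO library. At an equal shallow depth this share largely follows the CPM, so it does not separate more cells with the transcript from more transcript per cell. At least 1 Pdgfc UMI was found in 56.1% of K2-KO and 41.6% of control tumour cells, whose median depth was 40747 and 36753 UMIs. After every cell was reduced at random to 1000 UMIs, the transcript was found in 7.67% (6.53 to 8.93) of K2-KO and 3.71% (3.05 to 4.47) of control cells, by exact Clopper-Pearson intervals, with 1 K2-KO and 4 control cells too shallow. T cells, which should lack the transcript, gave 0 of 797 K2-KO and 0 of 499 control cells at that depth, which allows up to 0.376% and 0.601%, and 0.375% and 0.798% without thinning at median depths of 7319.5 and 6837 UMIs. No single tumour cell carried the result, since the cell with most Pdgfc UMIs held 0.821% of them in the K2-KO and 1.04% in the control library. Per cell, the median was 0.212 UMIs per 10000 in K2-KO and 0 in control cells, and the upper quartiles were 1.07 and 0.446.

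Tumour cells formed 5 clusters, and Pdgfc was higher in the K2-KO library in 5 of 5. Cluster 7, led by Ghr and Nhs, had the highest level, with 225 CPM in K2-KO and 95.8 CPM in control cells. Cluster 1, led by Slpi and Msmp, had 123 CPM in K2-KO and 53.7 CPM in control cells. Cluster 2, led by Sema3e, had 62.1 CPM in K2-KO and 17.8 CPM in control cells, the widest gap, with a log2 ratio of 1.80 (1.65 to 1.96). The smallest gap was in the dividing cells of cluster 0, led by Cenpf and other mitosis genes, with 39.0 CPM in K2-KO and 26.4 CPM in control cells and a log2 ratio of 0.56 (0.44 to 0.68). Cluster 6, led by the metallothioneins Mt1 and Mt2 and by Csf3 and Cxcl1, gave 74.8 CPM in K2-KO and 22.9 CPM in control cells, but only 32 K2-KO cells against 783 control cells. The mean of the 5 log2 ratios was 1.30 and that of the summed gate 0.97. The libraries held the clusters in unequal numbers, such as 977 K2-KO and 460 control cells in cluster 2. The clusters were made from the expression of these same cells, so the levels between clusters are a description.

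**Figure D2:**
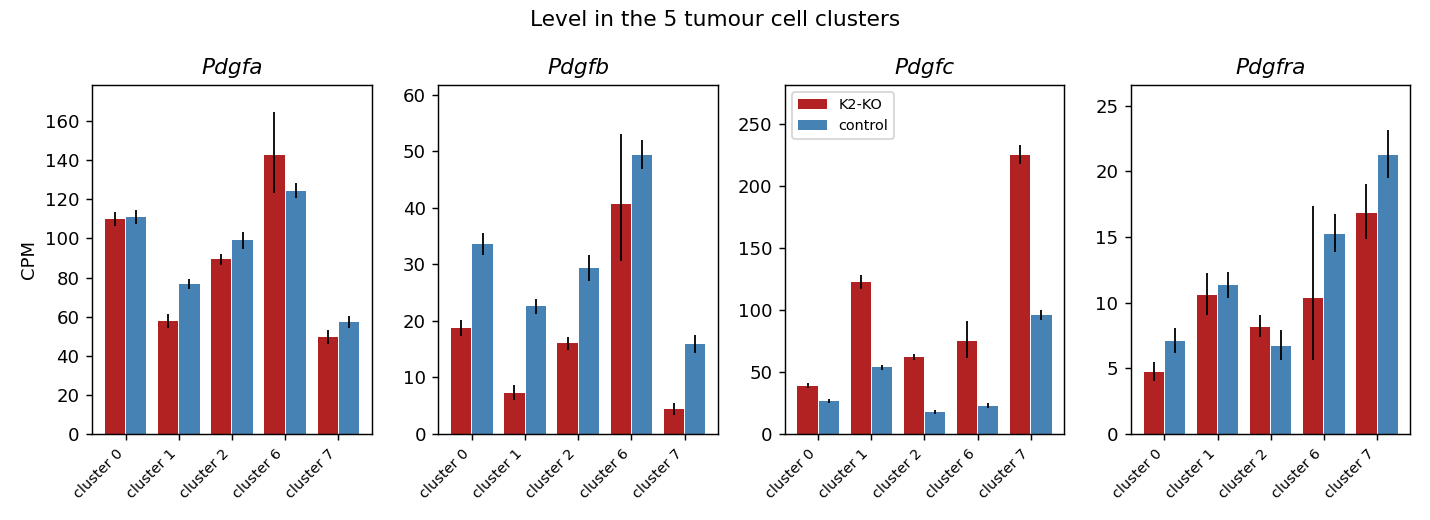
Level of Pdgfa, Pdgfb, Pdgfc and Pdgfra in the 5 tumour cell clusters, in CPM on linear axes that differ between panels, with K2-KO in red left of control in blue. Bars are sums over the cells of a cluster and lines exact Poisson 95% intervals; Pdgfc is higher and Pdgfb lower in K2-KO in all 5, with overlapping intervals for Pdgfb in cluster 6.

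The Epcam gate also held mammary gland cells of the host and left out tumour cells with little Epcam. Cells with gland markers Wfdc18 or Krt5 numbered 84 in the K2-KO and 27 in the control gate, and Pdgfc stood there at 129.6 CPM in K2-KO and 135 CPM in control cells. Without them the log2 ratio of Pdgfc in the gate was 0.96. Conversely, 555 K2-KO and 1041 control cells of the tumour clusters passed no gate. In these Epcam-low cells Pdgfc stood at 121 CPM (116 to 125) in K2-KO and 58.3 CPM (55.8 to 60.8) in control cells, above the 77.5 and 39.7 CPM of the cells of the same clusters that passed the gate. The mesenchymal filament gene Vim stood at 4435 CPM in the Epcam-low K2-KO cells and 3659 CPM in the Epcam-low control cells, and at 4138 and 3128 CPM in the gated cells of the same clusters.

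Outside the tumour cells Pdgfc was read in macrophages and fibroblasts. In macrophages it had 45.8 CPM (42.7 to 49.1) in K2-KO and 31.5 CPM (29.3 to 33.7) in control cells, a log2 ratio of 0.54 (0.40 to 0.69), which is just under 1.5-fold and was at that threshold or just past it, at 0.59, with doubled gate thresholds and with clusters in place of the gates. A shallow unnamed cluster led by Ccl8, Ctsk and Cd163, with the macrophage genes Folr2 and Ms4a7 also among its top genes, went the other way. It had 52.7 CPM of Pdgfc in K2-KO and 75.6 CPM in control cells, a log2 ratio of -0.52 (-1.04 to -0.005). In fibroblasts Pdgfc had 46.0 CPM (39.4 to 53.3) in K2-KO and 53.0 CPM (44.6 to 62.6) in control cells, a difference within counting error, the log2 ratio being -0.21 (-0.54 to 0.13). Pericytes had 1 UMI in each library, and endothelial cells 1 UMI in the K2-KO library and 0 in the control library, which allows up to 2.46 CPM. By cluster this differed, since the endothelial cluster held 20 Pdgfc UMIs (48.6 CPM) in K2-KO and 0 in control cells. Epcam stood in that cluster at 19.4 CPM in K2-KO and 1.64 CPM in control cells, and its part in the Pdgfc value was not tested. Among the other immune cells, which carry Ptprc but passed no other gate, Pdgfc had 62 UMIs (3.50 CPM) in K2-KO and 112 UMIs (15.2 CPM) in control cells.

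That last difference was a log2 ratio of -2.12 (-2.59 to -1.66). Epcam, the gate gene of the tumour cells, stood at 7.29 CPM in K2-KO and 8.29 CPM in control cells over the whole of that gate. Of 5 genes with at least 20 UMIs in that gate, 3 were at least 1.5-fold lower, where 9.56% of 13926 genes were, and none was higher, where 7.29% were. A cluster led by Ccl22 and Ccr7 held 3 Pdgfc UMIs in 75 K2-KO cells and 30 in 28 control cells. Its Epcam level was 2.53 CPM in K2-KO and 94.9 CPM in control cells. Plasmacytoid dendritic-like cells, named from Siglech and Ccr9, likewise had 6.91 CPM of Pdgfc in K2-KO and 39.7 CPM in control cells beside 18.4 and 55.2 CPM of Epcam. A cluster of conventional dendritic-like cells, led by Timd4 and Cd209a, had more Epcam, with 43.7 CPM in K2-KO and 102 CPM in control cells. Its Pdgfc was low, with 3 UMIs (0.785 CPM) in K2-KO and 8 UMIs (5.10 CPM) in control cells. The part of RNA from tumour cells in these values was not tested.

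Pdgfb, the ligand of both receptors, was lower in the tumour cells and the endothelial cells of the K2-KO library. In the tumour gate it had 1663 UMIs, 17.0 CPM (16.2 to 17.9), in K2-KO and 3985 UMIs, 32.5 CPM (31.5 to 33.6), in control cells. The log2 ratio was -0.93 (-1.02 to -0.85), or 1.91-fold lower. A Pdgfb UMI was found in 26.9% of K2-KO and 43.9% of control tumour cells, and in 1.52% and 2.91% after thinning to 1000 UMIs. For comparison, T cells thinned to that depth gave 0.753% in K2-KO and 0.802% in control cells.

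Pdgfb was lower in K2-KO in 5 of 5 tumour clusters. The log2 ratio ran from -1.86 (-2.25 to -1.48) in the Ghr-led cluster 7 to -0.28 (-0.69 to 0.11) in cluster 6, where the interval crosses 0. In the dividing cluster 0 the level was 18.7 CPM in K2-KO and 33.5 CPM in control cells. Pdgfb was lowest in cluster 7, the cluster with the most Pdgfc, with 4.39 CPM in K2-KO and 15.9 CPM in control cells, and highest in cluster 6, with 40.7 CPM in K2-KO and 49.4 CPM in control cells. Epcam-low tumour cells had 5.65 CPM in K2-KO and 20.9 CPM in control cells, below the 16.4 and 32.6 CPM of the gated cells.

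Endothelial cells had the highest Pdgfb level of any gate in both libraries. It was 99.3 CPM (68.8 to 139) in K2-KO cells, from 34 UMIs in 25 cells, and 239 CPM (212 to 268) in control cells, from 291 UMIs in 49 cells. The log2 ratio was -1.27 (-1.82 to -0.75), or 2.40-fold lower, in a gate where 23.1% of 7997 genes were at least 1.5-fold lower and 16.0% at least 1.5-fold higher. A Pdgfb UMI was found in 12 of 25 K2-KO cells and 36 of 49 control cells, at median depths of 10964 and 14759 UMIs. The cell with most held 29.4% of the Pdgfb UMIs in the K2-KO and 19.6% in the control library, so the counting interval is too narrow. The cells are those of the host in both libraries, and fewer RNA molecules per cell and a different mixture of endothelial cells cannot be told apart at this number. The macrophage marker sum in that gate was 383 CPM in K2-KO and 229.7 CPM in control cells, and its endothelial marker sum 4808 and 4904 CPM.

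Macrophages were the next source of Pdgfb, with 38.2 CPM (35.4 to 41.2) in K2-KO and 36.9 CPM (34.5 to 39.3) in control cells. Their log2 ratio of 0.05 (-0.09 to 0.20) leaves no difference beyond counting error at this depth. The shallow unnamed cluster led by Ccl8, Ctsk and Cd163 differed from this. It had 22 Pdgfb UMIs (18.4 CPM) in K2-KO and 46 (50.4 CPM) in control cells, a log2 ratio of -1.45 (-2.26 to -0.69). Fibroblasts had 0 Pdgfb UMIs in K2-KO cells, which allows up to 0.793 CPM, and 1 in control cells. Pericytes had 2 UMIs in K2-KO cells and 0 in control cells, so the ligand was near the limit of detection there.

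Pdgfa, the alpha receptor ligand, was close to equal in the tumour cells of both libraries. In the tumour gate it had 8865 UMIs, 90.8 CPM (88.9 to 92.7), in K2-KO and 11557 UMIs, 94.4 CPM (92.7 to 96.1), in control cells. The log2 ratio of -0.06 (-0.10 to -0.02) reversed to 0.08 when the gate thresholds were doubled, so no direction is given for the whole gate. The other settings gave values below 0, down to -0.19. By cluster Pdgfa was lower in K2-KO in 4 of 5. The log2 ratio lay between -0.41 (-0.51 to -0.30) in the Slpi-led cluster 1 and 0.20 (-0.02 to 0.41) in cluster 6. It was -0.15 (-0.23 to -0.07) in cluster 2, -0.21 (-0.34 to -0.08) in cluster 7 and -0.01 (-0.08 to 0.05), within counting error, in cluster 0. A Pdgfa UMI was found in 77.5% of K2-KO and 80.8% of control tumour cells, and in 6.55% and 6.87% after thinning. Epcam-low cells stood apart from this, with 52.3 CPM (49.4 to 55.4) in K2-KO and 83.0 CPM (80.0 to 86.0) in control cells.

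The highest Pdgfa level was that of the pericytes. Their 6 K2-KO cells held 83 UMIs, 517 CPM (412 to 641), and their 16 control cells 113 UMIs, 367 CPM (303 to 441). Every K2-KO pericyte and 15 of 16 control pericytes had a Pdgfa UMI, with a median of 5.39 per 10000 UMIs in K2-KO and 4.03 in control cells. The ranges over cells, 0.956 to 11.1 in K2-KO and 0 to 7.92 in control cells, overlapped. In that gate 2 of the 5 genes, Pdgfa and Pdgfrb, reached 20 UMIs and neither passed 1.5-fold, where 13.3% of 3984 genes were higher and 21.9% lower.

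In fibroblasts, macrophages and other immune cells Pdgfa was lower in K2-KO. Fibroblasts had 40.2 CPM (34.0 to 47.1) in K2-KO and 67.1 CPM (57.6 to 77.8) in control cells, a log2 ratio of -0.74 (-1.06 to -0.42). It was the 1 of 4 PDGF genes with at least 20 UMIs that passed 1.5-fold, in a gate where 6.29% of 11251 genes were at least 1.5-fold lower and 13.3% higher. A single control fibroblast held 24.4% of those control UMIs, without the top cell of each library the log2 ratio was -0.53 (-0.88 to -0.17), short of 1.5-fold, and the share of fibroblasts with a Pdgfa UMI went the other way, 48 of 85 K2-KO and 37 of 83 control cells. Macrophages had 26.2 CPM (23.9 to 28.7) in K2-KO and 36.6 CPM (34.2 to 39.0) in control cells, in a gate where 3.89% of 13823 genes were at least 1.5-fold lower and 9.9% higher, and none of the 5 PDGF genes was among them. Endothelial cells had 58.4 CPM (35.7 to 90.2) in K2-KO and 78.8 CPM (63.8 to 96.2) in control cells, and 70% of the K2-KO UMIs were in 1 cell.

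**Figure D3:**
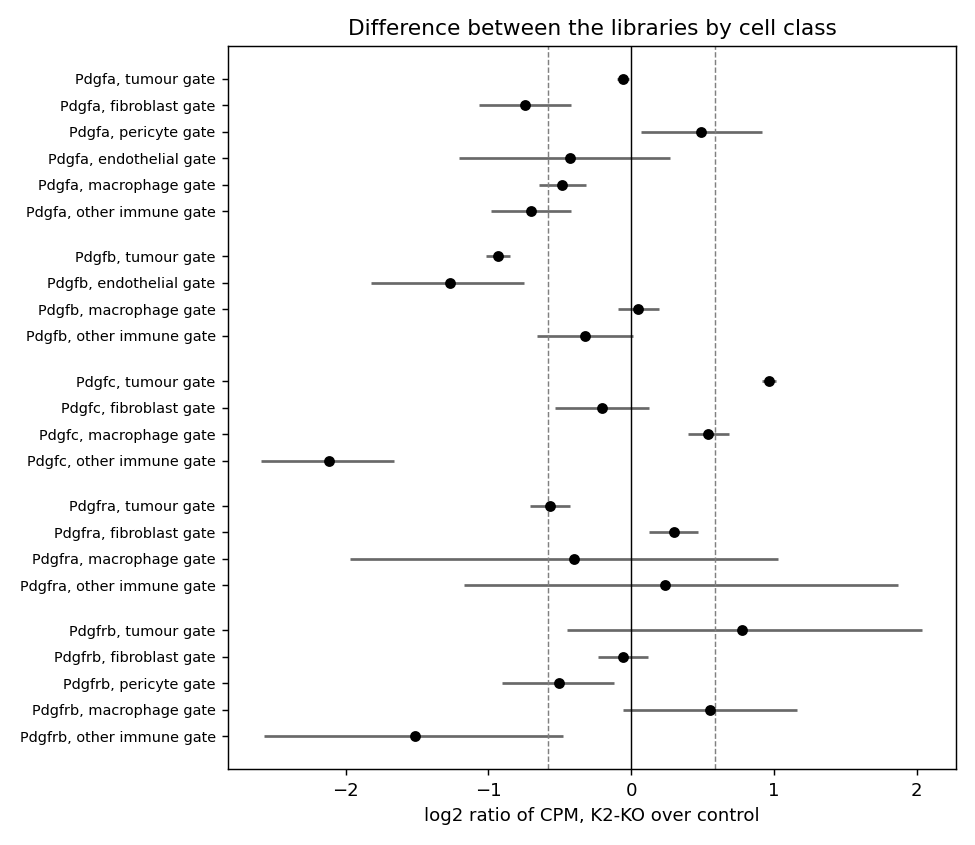
Log2 ratio of CPM, K2-KO over control, for each gene with at least 20 UMIs over both libraries in a class, T cells and unassigned cells not drawn. Points are ratios, lines exact 95% intervals for counting error, and dashed lines mark 1.5-fold; Pdgfc in tumour cells lies at 0.97 and Pdgfb in tumour cells at -0.93.

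By share of UMIs, the tumour gate was the main source of each ligand, as it was of all genes together, with 57.1% of all K2-KO and 60.3% of all control UMIs. The tumour gate held 79.4% of Pdgfa UMIs in the K2-KO and 71.5% in the control library, 59.0% and 64.8% of Pdgfb UMIs, and 65.3% and 60.2% of Pdgfc UMIs. Unassigned cells, most of them Epcam-low tumour cells, held a further 11.3% of Pdgfa, 5.43% of Pdgfb and 25.1% of Pdgfc UMIs in K2-KO and 19.1%, 12.8% and 26.8% in control. With clusters in place of the gates, tumour cells held 84.1% of Pdgfc UMIs in the K2-KO and 84.2% in the control library. Macrophages held 24.1% of Pdgfb UMIs in the K2-KO and 14.95% in the control library, and 4.17% and 5.64% of Pdgfa UMIs. Endothelial cells, for all their high level, held 1.21% of Pdgfb UMIs in the K2-KO and 4.73% in the control library. These shares follow the number of cells of each class, which the mCherry sort and the digestion set, and do not give the amounts in the tumour.

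**Figure D4:**
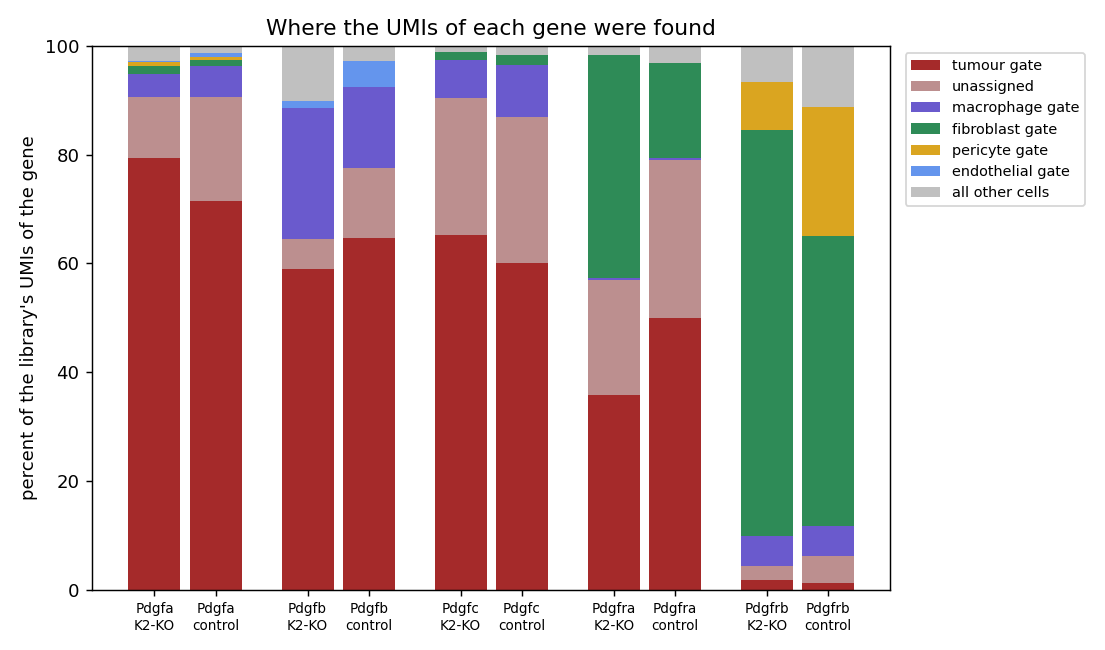
Share of each library's UMIs of a gene by cell class, in percent, with K2-KO left of control for each gene. The tumour gate holds 59.0% to 79.4% of the UMIs of every ligand, and the fibroblast gate 74.5% of Pdgfrb in K2-KO and 53.3% in control.

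Pdgfra, the alpha receptor, had its highest level in fibroblasts and was also read at a low level in the more numerous tumour cells. By share of UMIs, the tumour gate held 35.7% of Pdgfra in K2-KO and 50% in control, and the fibroblast gate 41.0% and 17.4%. Fibroblasts had 770 UMIs, 203 CPM (189 to 218), in 85 K2-KO cells and 434 UMIs, 165 CPM (150.3 to 182), in 83 control cells. The log2 ratio of 0.30 (0.13 to 0.47) fell short of 1.5-fold and dropped to 0.03 with doubled gate thresholds and to 0.07 when each cell was weighted equally. Per cell, the median was 0.944 UMIs per 10000 in K2-KO and 0.862 in control fibroblasts, with ranges of 0 to 16.2 and 0 to 16.1. A Pdgfra UMI was found in 69 of 85 K2-KO and 72 of 83 control fibroblasts.

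In the tumour gate Pdgfra had 671 UMIs, 6.87 CPM (6.36 to 7.41), in K2-KO and 1247 UMIs, 10.2 CPM (9.63 to 10.8), in control cells. The log2 ratio was -0.57 (-0.70 to -0.43), just under 1.5-fold, and it passed 1.5-fold with doubled gate thresholds (-0.75), with called doublets kept (-0.60) and with scaling by the trimmed mean of M values (TMM, -0.70). It was smaller with halved thresholds (-0.50), with clusters in place of the gates (-0.49) and without gland cells (-0.55). The mean of the log2 ratios of the 5 tumour clusters was only -0.26. The transcript was spread thinly, in 23.1% of K2-KO and 28.9% of control tumour cells, with no more than 6 UMIs in a K2-KO cell and 9 in a control cell. After thinning, 0.965% of K2-KO and 1.33% of control tumour cells had a UMI, against 0 of 797 K2-KO and 2 of 499 control T cells. The same cells were read for fibroblast RNA. The 7 fibroblast markers summed to 21.1 CPM in K2-KO and 20.5 CPM in control tumour cells, with Pdgfra at 325 and 496 UMIs per 1000 UMIs of those markers, against 6.51 in K2-KO and 5.58 in control fibroblasts. For Pdgfrb the same figures were 7.27 and 4.38 in tumour cells and 5.45 and 5.96 in fibroblasts.

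Within the tumour cells Pdgfra was highest in the Ghr-led cluster 7, with 16.8 CPM in K2-KO and 21.3 CPM in control cells, the cluster that also had the most Pdgfc. It was lowest in K2-KO cells in the dividing cluster 0, with 4.70 CPM, beside 7.09 CPM in control cells. The log2 ratios ran from -0.59 (-0.89 to -0.30) in cluster 0 to 0.29 (0.01 to 0.58) in cluster 2, so the clusters did not share a direction. Epcam-low tumour cells had 14.8 CPM (13.2 to 16.4) in K2-KO and 18.5 CPM (17.1 to 19.9) in control cells, above the 7.16 and 10.2 CPM of the gated ones.

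Other classes carried little Pdgfra. Macrophages had 7 UMIs in K2-KO and 13 in control cells, endothelial cells 0 and 1, and pericytes 0 and 1. The T cell gate had 2 UMIs in 800 K2-KO cells and 32 UMIs in 501 control cells, but the control UMIs sat in 2 cells, 1 of which held 71.9% of them. Fibroblast markers summed to 14.2 CPM in K2-KO and 892 CPM in control cells of that gate, and their part in the value was not tested. In the same gate Pdgfrb had 6 UMIs in K2-KO and 27 in control cells, with 88.9% of the control UMIs in 1 cell. Pdgfra and Pdgfrb were the 2 genes of 3 with at least 20 UMIs there that were at least 1.5-fold lower, where 10.4% of 12192 genes were and 7.93% were higher.

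Pdgfrb, the beta receptor, was confined more closely to the stroma, with its highest level in pericytes. The 6 K2-KO pericytes held 76 UMIs, 473 CPM (373 to 592), and the 16 control pericytes 207 UMIs, 672 CPM (584 to 771). Over cells the range was 2.88 to 9.54 UMIs per 10000 in K2-KO, with a median of 4.75, and 0 to 12.6 in control, with a median of 7.15, so the cells of the libraries overlapped. The log2 ratio was -0.51 (-0.91 to -0.12), under 1.5-fold. Fibroblasts had 644 UMIs, 170.1 CPM (157 to 184), in K2-KO and 463 UMIs, 177 CPM (161 to 193), in control cells. Their log2 ratio of -0.05 (-0.23 to 0.12) leaves no difference beyond counting error, and the interval spans less than 1.5-fold either way.

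Endothelial cells had 0 Pdgfrb UMIs in both libraries, which allows up to 8.76 CPM in K2-KO and 2.46 CPM in control cells. Tumour cells had 0.154 CPM (0.0860 to 0.253) in K2-KO and 0.0898 CPM (0.0448 to 0.161) in control cells. Macrophages had 2.76 CPM (2.04 to 3.65) in K2-KO and 1.88 CPM (1.38 to 2.51) in control cells. By gate, Pdgfb was thus read in endothelial cells and Pdgfrb in pericytes, but by cluster the separation was less complete. The endothelial cluster held 0 Pdgfrb UMIs in K2-KO and 13 (10.7 CPM) in control cells, and the cluster of pericyte-like or smooth muscle-like cells held 5 Pdgfb UMIs (20.4 CPM) in K2-KO and 3 (8.41 CPM) in control cells.

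The receptors were read together in most fibroblasts and apart in pericytes. Both had a UMI in 60 of 85 K2-KO and 61 of 83 control fibroblasts. Pdgfra alone was found in 9 K2-KO and 11 control fibroblasts, Pdgfrb alone in 9 and 4, and neither in 7 and 7. Of the pericytes, 6 of 6 K2-KO and 14 of 16 control cells had Pdgfrb alone, and both receptors were found in 0 K2-KO cells and 1 control cell. A fibroblast with no UMI of a receptor at these depths, medians of 43719 UMIs in K2-KO and 33194 in control cells, may still carry it.

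**Figure D5:**
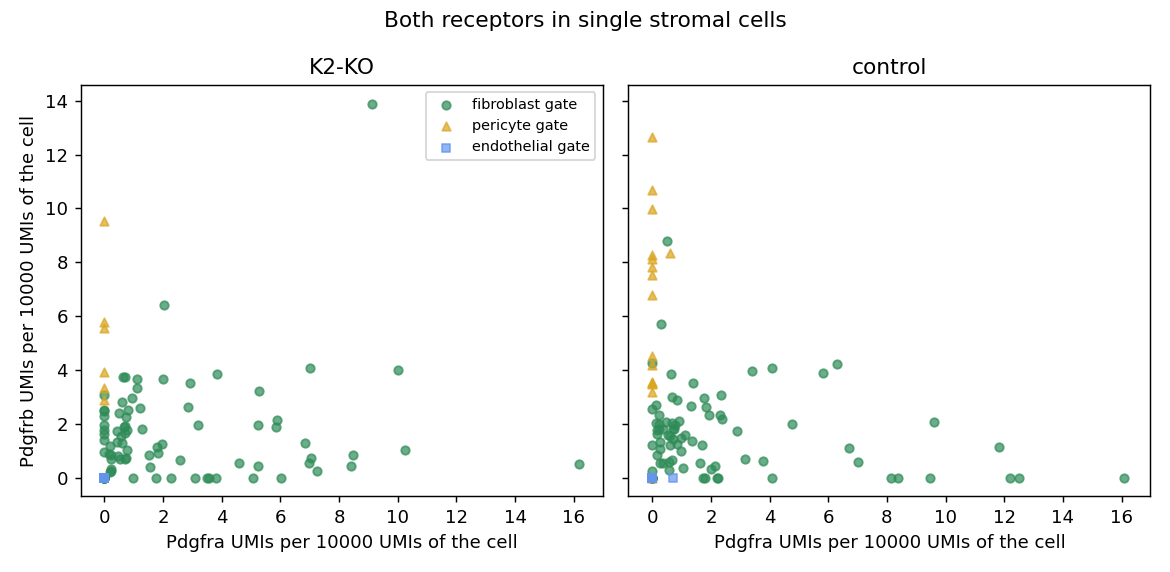
Pdgfra (x axis) and Pdgfrb (y axis) in single cells of the stromal gates, each in UMIs per 10000 UMIs of the cell, for K2-KO (left) and control (right). Each mark is a cell; fibroblasts (circles) spread along both axes, pericytes (triangles) lie on the Pdgfrb axis apart from 1 control cell, and endothelial cells (squares) lie at or near 0.

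Genes that process or bind the ligands differed in tumour cells by gene and not in 1 direction. Of 14, 13 had at least 20 UMIs in the tumour gate, 2 of them higher by the 1.5-fold threshold, beside 19.5% of all genes, and 4 lower, beside 6.13%; the median log2 ratio was -0.25 beside 0.12 for all genes. The lowest was Pdgfrl, which encodes a secreted protein that resembles the receptor's ligand-binding part, with 42.6 CPM in K2-KO and 168 CPM in control cells, a log2 ratio of -1.98 (-2.03 to -1.93). Sparc, a matrix protein that binds PDGF-B, had 90.4 CPM in K2-KO and 175 CPM in control cells. Plat, the tissue plasminogen activator, which cleaves latent PDGF-C, had 8.02 CPM in K2-KO and 14.1 CPM in control cells, so the activator was lower in the library with more Pdgfc. The proprotein convertase Pcsk5 had the highest ratio, with 2.24 CPM in K2-KO and 0.907 CPM in control cells. Next were the remaining ligand Pdgfd, with 0.686 and 0.368 CPM, where 1 control cell held 55.6% of the control UMIs, and the convertase Pcsk6, with 4.05 and 2.88 CPM.

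In fibroblasts the same list had 2 higher and 3 lower of 13, beside 13.3% and 6.29% of all genes, with a median of -0.10 beside 0.08 for all genes. Pcsk6 was highest, with 31 UMIs (8.19 CPM) in K2-KO and 8 UMIs (3.05 CPM) in control cells, with 50% of the control UMIs in 1 cell, followed by Pdgfd, a ligand of the beta receptor, with 24.0 and 12.2 CPM, and Plat, with 237 and 185 CPM. The lowest were A2m, a plasma protein that binds PDGF, with 9.78 CPM in K2-KO and 19.1 CPM in control cells, the urokinase gene Plau, with 25.9 and 41.2 CPM, and Pdgfrl, with 79.3 and 122 CPM. Plat thus had opposite signs in tumour cells and fibroblasts, a difference between gates that was not tested.

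Genes of the signalling chain below the receptors were close to equal. In tumour cells 30 of 30 had at least 20 UMIs and none was 1.5-fold higher, where 19.5% of all genes were, or lower, where 6.13% were, with a median of -0.06. The extremes were the adaptor Nck2, with 67.9 CPM in K2-KO and 99.7 CPM in control cells, the kinase subunit Pik3cb, with 32.1 and 42.3 CPM, and the adaptor Nck1, with 47.8 and 59.8 CPM, on the lower side. On the higher side they were the Src-family kinase Fyn, with 12.8 CPM in K2-KO and 8.89 CPM in control cells, the GTPase gene Hras, with 89.3 and 72.5 CPM, and Pik3r1, with 30.5 and 25.1 CPM. In fibroblasts 1 of 29 was higher, beside 13.3% of all genes, and none lower, beside 6.29%, with a median of 0.06. The higher gene was the exchange factor Vav3, with 15.6 CPM in K2-KO and 4.58 CPM in control cells. The top cell held 32.2% of its K2-KO and 25% of its control UMIs. In tumour cells Vav3 stood at 245 CPM in K2-KO and 236 CPM in control. The 7 tumour epithelial markers summed to 153.5 CPM in K2-KO and 50.3 CPM in control cells of the fibroblast gate. The part of tumour cell RNA in the Vav3 value was not tested. Jak1 (359 and 283 CPM) was also among the highest ratios, while Plcg1 (15.6 and 22.9 CPM), Mapk3 (38.6 and 54.5 CPM) and Sos1 (20.9 and 28.6 CPM) had the lowest ratios. Without the top cell of each library Plcg1 passed as lower.

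Of 16 feedback genes that restrain receptor signalling, 3 were lower in tumour cells, where 6.13% of all genes were, and none was higher, where 19.5% were, with a median of -0.11. Spry1, an inhibitor of receptor tyrosine kinase signalling, had 20.4 CPM in K2-KO and 41.4 CPM in control cells. The ERK phosphatase gene Dusp4 had 21.4 CPM in K2-KO and 40.3 CPM in control cells, and the Ras pathway inhibitor Spred1 had 53.7 and 80.6 CPM. Spred1 only just passed the threshold, with a log2 ratio of -0.59 (-0.63 to -0.54). Among the highest ratios were those of Rasa1 (225 CPM in K2-KO and 184 CPM in control cells) and Ptpn2 (69.2 and 59.0 CPM). In fibroblasts 2 of 16 were higher and 1 lower, shares close to the 13.3% and 6.29% of all genes, with a median of 0.03. Spry1 was on the other side there, with 21.1 CPM in K2-KO and 9.53 CPM in control cells, together with Socs3 (145 and 91.1 CPM) and Spry4 (10.6 and 7.63 CPM), while Dusp4 (19.6 and 31.3 CPM), Acp1 (49.9 and 60.6 CPM) and Cbl (47.6 and 55.7 CPM) were lowest.

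Genes known as early responses of cultured fibroblasts to PDGF were lower in K2-KO tumour cells in 9 of 18, beside 6.13% of all genes, and none was higher, beside 19.5%, with a median of -0.51. The lowest were the chemokine gene Ccl2, with 2.99 CPM in K2-KO and 66.6 CPM in control cells, the matricellular gene Ccn2, with 9.43 and 29.8 CPM, and the chemokine gene Cxcl1, with 173 and 456 CPM. The highest ratios were those of the hyaluronan synthase gene Has2 (201 and 149 CPM), the urokinase receptor gene Plaur (137 and 109 CPM) and Srf (5.41 and 4.88 CPM). These genes answer many stimuli besides PDGF. In fibroblasts, which carry both receptors, 4 of 18 were higher, beside 13.3% of all genes, and 1 lower, beside 6.29%, with a median of 0.11. Ccl2 (870.3 and 519 CPM), the transcription factor gene Klf4 (168 and 101 CPM) and Fos (1082 and 682 CPM) were highest in K2-KO over control, and Ier3 (344 and 630 CPM), Ccn2 (282 and 413 CPM) and Srf (16.9 and 24.0 CPM) lowest.

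Among relatives of the PDGFs and their receptors, Vegfa and Pgf were the 2 that were lower in tumour cells. Of 10 with at least 20 UMIs 4 were higher, beside 19.5% of all genes, and 2 lower, beside 6.13%, with a median of 0.29. Vegfa, the main endothelial growth factor, had 16.8 CPM in K2-KO and 55.5 CPM in control cells and Pgf, the placental growth factor, 5.50 and 17.2 CPM. The receptor gene Flt1, next in order, had 50.2 CPM in K2-KO and 65.8 CPM in control cells, and the growth factor genes Vegfb and Vegfc had log2 ratios of 0.15 and 0.23. Kdr (0.307 and 0.0653 CPM), Vegfd (0.727 and 0.237 CPM) and Kit (7.03 and 2.59 CPM) had the highest ratios at low levels. A single K2-KO cell held 73.3% of the K2-KO Kdr UMIs, and without the top cell of each library 8 K2-KO and 6 control UMIs remained, a log2 ratio of 0.74 (-0.97 to 2.55). In fibroblasts 1 of 7 was higher, beside 13.3% of all genes, and 3 were lower, beside 6.29%, with a median of -0.50. Vegfa (154 and 244 CPM), Pgf (43.9 and 83.1 CPM) and Flt1 (4.23 and 9.53 CPM) were lowest there too, whereas Vegfc, a lymphatic growth factor, had 68.4 CPM in K2-KO and 33.6 CPM in control cells, followed by Csf1r (17.4 and 13.7 CPM) and Vegfd (33.6 and 31.6 CPM). The cell with most held 22.3% of the K2-KO and 36.2% of the control Pgf UMIs, and the log2 ratio of -0.92 became -0.62 without these cells. For Flt1 such cells held 31.25% of the K2-KO and 36% of the control UMIs, and the log2 ratio of -1.17 became -1.08 (-2.33 to 0.12). With TMM scaling, all tumour ratios drop by 0.14 and all fibroblast ratios by 0.06, and the tumour counts become 0 higher and 1 lower of 30 signalling genes, 4 lower of 16 feedback genes and 3 higher of 10 relatives. The fibroblast counts become 4 lower of 13 processing genes, 1 higher and 1 lower of 29 signalling genes, and 3 higher and 2 lower of 18 early response genes.

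The genes most like each PDGF gene in level were named from the Pearson correlation of log2(CPM + 1) over 14 sums, 7 classes in each library. Classes needed at least 20 cells in both libraries, so the pericytes, with the highest Pdgfa and Pdgfrb levels, were left out. Pdgfa was most like Rai14 (0.98) and Evi5, Pdgfb like Ehd4 (0.96) and Slc12a7, and Pdgfc like Gm26569 (0.94), Tgfb3 and the receptor tyrosine kinase gene Axl. Pdgfra was most like Ak1 (0.98), the collagen gene Col5a1 and Ccn5, and Pdgfrb like Lrrc15 (0.97), the crosslinking enzyme gene Loxl1, Svep1, the matrix proteoglycan gene Lum and Cdh11. The sums of a library share its depth and capture, and the correlations are a description of these 14 sums.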

How the data were processed

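The deposited matrix holds raw UMI counts, whole numbers per gene and cell barcode, which the authors made from 10x Genomics 3′ libraries; Cell Ranger 2.1.1 and mm10 are named per the submitters' processing notes, and Cell Ranger 6.0.1 per the file headers. How cells were called and whether reads were subsampled when the libraries were joined is not given in the sources used here. The barcode suffix was matched to the library number in the labels and by nothing else. The libraries held 180774106 K2-KO and 214163620 control UMIs.

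Barcodes with at least 500 UMIs, 200 genes and at most 20% mitochondrial UMIs were kept, and doublets called with Scrublet in scanpy 1.11.5 were removed (2.89% of K2-KO and 2.80% of control cells). Gates needed a minimum of marker UMIs and of UMIs per 10000: Epcam 2 and 1, Col1a1 5 and 20, Pecam1 3 and 3, Rgs5 3 and 5, C1qa 3 and 10, Cd3e 1 and 1, S100a8 10 and 50, and Ptprc 1 and 1. Cells passing several gates were set aside (18 K2-KO and 18 control). Fibroblast, endothelial and pericyte cells also had under 1 Ptprc UMI per 10000, and Rgs5 took precedence over Col1a1. Clusters were made by the Leiden method (igraph 0.11.9, resolution 1.0, 30 principal components of 2000 variable genes, 15 neighbours, no integration).

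CPM carries exact Poisson, shares exact Clopper-Pearson and log2 ratios exact conditional binomial 95% intervals (scipy 1.17.1), all for counting error only. A count of 0 is given with the limit of 3 counts. Ratios need at least 20 UMIs over both libraries, and 1.5-fold is the threshold for counting a gene as higher or lower. Named from each gene list were the 3 highest and 3 lowest ratios in the tumour and fibroblast gates, apart from 2 values that are not reported here. Simulated counts were used to check the ratio calculation only. They were drawn from class sums without the spread between cells or tumours, so they do not test how well the intervals hold for these data. The PDGF genes, gates, markers and gene lists were chosen with earlier results of these data known. TMM factors came from edgeR 4.0.16 in R 4.3.3. Gene positions come from a GENCODE annotation that held 99.6% of the matrix's gene identifiers.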

Additional observations from a re-analysis of the deposited data

Results flagged for a closer look

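Pdgfc was on opposite sides of 0 in different cell classes. Its log2 ratio, K2-KO over control, was 0.97 in the tumour gate and -2.12 in the other immune gate. Each value is a single pair of libraries, so the difference between the classes was not tested. In the other immune gate 12.9% of the K2-KO and 17.9% of the control Pdgfc UMIs were in 1 cell, and Epcam stood there at 7.29 CPM in K2-KO and 8.29 CPM in control cells.

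Pdgfa likewise had a log2 ratio of 0.49 in the pericyte gate and of -0.74 in the fibroblast gate, a difference that was not tested and that rests on 6 K2-KO and 16 control pericytes. The pericyte with most Pdgfa held 31.3% of the K2-KO and 10.6% of the control UMIs.

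Pdgfra had a log2 ratio of 0.30 in the fibroblast gate and of -4.74 in the T cell gate, again not tested. The T cell value rests on 2 K2-KO UMIs and on 32 control UMIs held by 2 cells.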

How the results depend on the processing

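No paired analysis was possible because each group has 1 library, and for the same reason no replicate could be left out. Doubled gate thresholds reversed the Pdgfa tumour log2 ratio to 0.0801 and gave 0.88 for Pdgfc in tumour cells and 0.0323 for Pdgfra in fibroblasts. Halved thresholds gave -0.10 for Pdgfa and clusters in place of gates -0.11. With each cell weighted equally Pdgfa was at -0.10, Pdgfb in endothelial cells at -1.83, Pdgfc at 1.10 and Pdgfra in fibroblasts at 0.0745. TMM factors gave -0.19 for Pdgfa and 0.83 for Pdgfc, and the mean over tumour clusters, chosen after seeing the data, -0.12 and 1.30. The UMI share of the tumour gate was the value most set by the gate. For Pdgfa it was 69.9% in K2-KO and 56.8% in control with doubled thresholds, 85.3% and 79.1% with halved ones and 88.8% and 89.9% by clusters; it was 78.5% in K2-KO without gland cells and 70.5% in control with doublets kept. For Pdgfb it was 54.4% in K2-KO and 53.6% in control doubled, 61.6% and 70.0% halved, 75.9% in control by clusters and 55.3% in K2-KO without gland cells. For Pdgfc it was 48.4% and 46.9% doubled, 76.7% and 70.9% halved, 84.1% and 84.2% by clusters, and 62.2% and 58.8% without gland cells. The causes of these moves were not tested. The other 54 of 89 values moved by less than their counting interval. Of 28 values for 4 further ratios, added after seeing the data, 3 moved by more and none changed sign: Pdgfb in tumour cells ranged from -1.06 to -0.79, Pdgfra in tumour cells from -0.75 to -0.49, Pdgfc in macrophages from 0.48 to 0.59 and Pdgfa in fibroblasts from -0.95 to -0.53. The vascular values rest on 6 K2-KO pericytes and 25 K2-KO endothelial cells. Leaving out, for each list gene, the top cell of each library, also added after seeing the data, changed the list counts past 1.5-fold by 1 gene, Plcg1 in fibroblasts.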

Other observations

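Pdgfd, which encodes the remaining PDGF ligand, had its highest level in endothelial cells. Endothelial cells had 31 UMIs, 90.6 CPM (61.5 to 129), in K2-KO and 113 UMIs, 92.7 CPM (76.4 to 111), in control cells, a log2 ratio of -0.03 (-0.66 to 0.55), in the same cells in which Pdgfb had a log2 ratio of -1.27. Macrophages had 0 Pdgfd UMIs in K2-KO and 1 in control cells. Among clusters outside the tumour, that of natural killer-like cells, led by Gzma and Ncr1, had 18.7 CPM of Pdgfa in K2-KO and 24.7 CPM in control cells and 16.2 and 19.8 CPM of Pdgfb, and monocyte-like cells, led by Ly6c2 and Ccr2 among others, had 17.1 and 32.4 CPM of Pdgfa and 19.7 and 19.4 CPM of Pdgfb. Epcam stood at 8.37 CPM in K2-KO and 17.8 CPM in control cells of the natural killer-like cluster, and at 6.64 and 15.4 CPM in the monocyte-like one; its part in these values was not tested. A cluster led by Wfdc18, a milk protein gene of the mammary gland, had 101 CPM of Pdgfc in K2-KO and 89.5 CPM in control cells beside 29.6 and 13.2 CPM of Pdgfa.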
